A study of Mus musculus with 18 samples.

Results

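Mural granulosa cells, the layers that line the wall of the ovarian follicle, were compared at 12 h and at 4 h after human chorionic gonadotropin (hCG) in wild-type mice. The comparison set the 3 libraries titled mural granulosa cells at 12 h against the 3 at 4 h, which are 6 of the 18 libraries of the series. Both groups were wild type, came from ovaries and had received hCG, so neither is untreated, and no strain, age or priming is given in the labels. The other 12 libraries were mural cells at 0 h and cumulus cells at 0, 4 and 12 h, also wild type. The cell type label of 8 of the 9 libraries titled cumulus reads mural and 1 has none, so titles decided which libraries are cumulus, and each difference between the cell types rests on that choice. Values are polyadenylated-RNA read counts per gene. Levels are given as CPM, the counts of a gene scaled to a common library size, changes as log2 of the 12 h over the 4 h level ± standard error (SE, n = 3 libraries per group), and means ± standard deviation (SD, n = 3). Nothing in the labels says that the libraries of a group came from separate animals. A p-value or SE here reflects only how all 18 libraries, cumulus ones included, vary within their groups, which may be technical.

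hCG acts on the receptor of luteinizing hormone (LH) and sets off ovulation. In the first hours the mural cells release growth factors of the EGF family, prostaglandins and peptides that act on the cumulus cells, the oocyte and the vessels around the follicle. Later the follicle wall is broken down, and the remaining cells stop dividing and turn into luteal cells, which take up and make cholesterol and turn it into progesterone. 

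The 12 h libraries held 35.1 M, 38.3 M and 40.1 M counts, and those of 4 h held 32.2 M, 37.1 M and 36.9 M. Of all genes tested 34.5% were called (adjusted p under 0.05), and each marker count is to be read against this share. Of 17 oocyte markers none was called between the times, and their summed level ran from 169.1 to 403.5 CPM at 12 h and from 224.8 to 336.1 CPM at 4 h. Of 15 granulosa markers 2 were called higher and 8 lower, with a summed level of 7053 to 8646 CPM at 12 h and 18220 to 21070 CPM at 4 h. Nr5a2, called higher, had 1419, 1589 and 1541 CPM at 12 h, against 726.5, 858.7 and 750.6 CPM at 4 h. Kctd14, the other one called higher, had 36.63, 29.39 and 40.14 CPM at 12 h, against 24.27, 12.24 and 14.95 CPM at 4 h. Foxl2 and Gata4, transcription factors that define the lineage, were not called, with 117.3 to 122 CPM at 12 h against 89.1 to 106.4 CPM at 4 h for Foxl2. Lymphocyte, erythroid, platelet and surface epithelium markers held no called gene. Only 5 lymphocyte and 3 platelet markers were tested, and these lists summed to at most 5.309 and 8.635 CPM in any of the 6 libraries. Erythroid markers summed to 381 to 735.5 CPM at 12 h and 450.1 to 700.9 CPM at 4 h. In mural libraries of 0 h they summed to 87.86 to 145.9 CPM. Of 11 macrophage markers 1 was called, lower. Of 6 neutrophil markers Camp was called higher, at 5.81 to 6.95 CPM at 12 h and 0.233 to 0.73 CPM at 4 h, while Ly6g and Elane had no count and the list summed to 9.69 to 12.1 CPM at 12 h and 2.76 to 6.55 CPM at 4 h. Among 12 stroma and smooth muscle markers 2 were higher and 1 lower, and among 8 theca and androgen markers 1 was higher and 2 lower. Of 14 endothelial markers Cdh5 was higher and Kdr lower, while the defining marker Pecam1 stood at 4.55 to 6.68 CPM at 12 h and 4.93 to 8.14 CPM at 4 h. Among the 4 h libraries replicate 2 stood apart, with the highest level of Areg, Ereg, Ptgs2, Pgr and Star, and it is followed below. In bulk RNA, fewer cells of a type and less RNA per cell cannot be told apart.

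A large part of the transcriptome differed between the times. Of 19941 genes tested, 6873 (34.5%) had an adjusted p under 0.05 and are referred to as called, 3659 higher (18.3%) and 3214 lower (16.1%). The test was the quasi-likelihood test of edgeR over all 18 libraries, Benjamini-Hochberg adjusted, and it gave every adjusted p printed here. With library totals in place of scaling factors the share of called genes that were higher was 66.8% instead of 53.2%, and the median of all genes was 0.159 instead of 0.013. A change of at least 2-fold was called for 2981 genes (14.9%), 1681 of them higher (8.43%) and 1300 lower (6.52%). The libraries of the times did not overlap for 55.8% of the genes tested, with 12 h above 4 h for 29% and below for 26.9%. Among called genes 608 rose and 539 fell by more than 4-fold, and 105 rose and 123 fell by more than 16-fold. Because called genes are this common, the count of each list below is to be read against these shares.

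**Figure D1:**
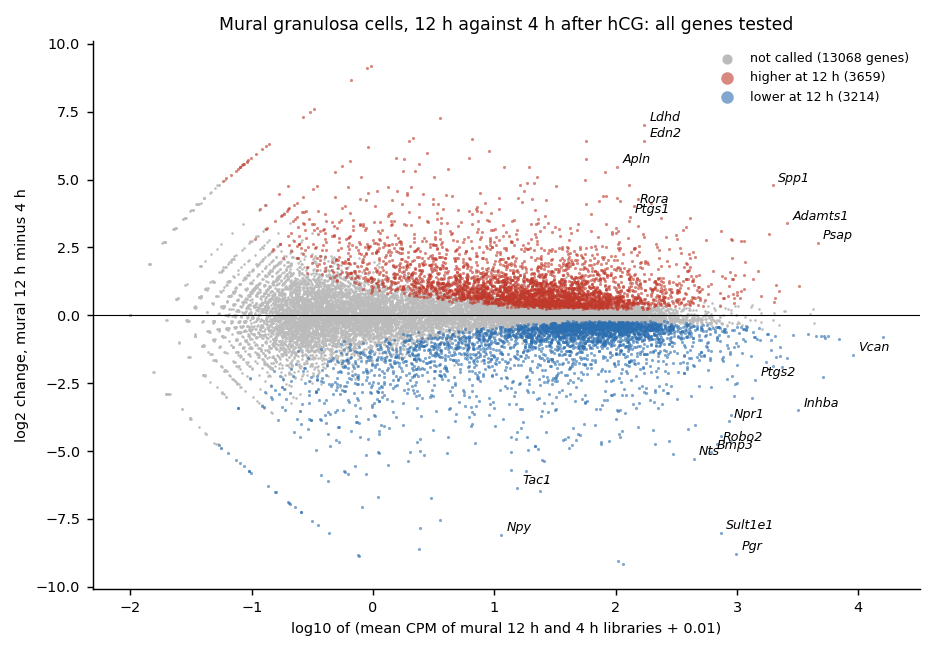
Log2 change of each of 19941 genes between mural libraries of 12 h and 4 h (vertical axis, positive means higher at 12 h) against log10 of their mean level in CPM (horizontal axis). Red points are the 3659 genes called higher, blue points the 3214 called lower and grey points the rest. Ldhd and Edn2 lie at the top and Pgr, Npy and Sult1e1 at the bottom, and diagonal streaks at the left are genes with a few counts in all.

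The genes with the largest called rises at 20 CPM or more were of mixed function. Ldhd, which encodes the mitochondrial D-lactate dehydrogenase (GRCm38 chr8:111623785-111630374, minus strand, protein-coding), had 321, 366 and 341 CPM at 12 h, against 2.46, 2.35 and 3.08 CPM at 4 h. Its libraries of the times lay far apart and the change was 7.02 ± 0.56 (adjusted p = 2.83e-08). Next came the peptide gene Edn2 and Xpnpep2, a membrane aminopeptidase, at 5.75 ± 0.36. The tight junction gene Cldn18 (5.45 ± 0.60), the proteoglycan gene of secretory granules Srgn, the fatty acid desaturase gene Scd3 (4.88 ± 0.47) and the pro-apoptotic gene Bmf (4.78 ± 0.26) rose as well. Srgn lay among the genes that rose by 4.58 to 5.29, with Slc12a8, Wisp2, Gimap5, Jakmip3 and the metal transporter gene Slc11a1. Jakmip3 averaged 239.86 ± 22.8, 9.03 ± 4.21 and 249.99 ± 26.2 CPM at 0, 4 and 12 h, so the 4 h level was the low one of the 3 times.

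The largest called falls at 20 CPM or more were also of mixed function. Pgr, the peptide genes Npy, Tac1, Nmu and Nts, and Sult1e1, Gsta2, Ptx3 and Bmp3, all taken up with their lists, were among the 15. Grin2b, which encodes a subunit of the NMDA type of glutamate receptor, had 0.815, 0.32 and 1.1 CPM at 12 h, against 42, 63.1 and 52.4 CPM at 4 h (-6.13 ± 0.37, adjusted p = 1.14e-09). Msc, the gene of the transcription factor musculin, had 0.786, 0.32 and 0.448 CPM at 12 h, against 19.974, 38.9 and 21.1 CPM at 4 h (-5.68 ± 0.48). In both, every 12 h library lay far below every 4 h library. The hormone gene Retn (-5.02 ± 0.55), the receptor gene Gpr83 (-4.97 ± 0.29), Cfap299 (-5.38 ± 0.24) and the transcript AY702103 (-6.47 ± 0.45) fell as well.

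Among the genes with the most counts, Psap, the precursor of the saposins that help lysosomal enzymes break down lipids, rose. It had 7181, 8317 and 8408 CPM at 12 h, against 1248, 1120.4 and 1386 CPM at 4 h, a change of 2.67 ± 0.15 (adjusted p = 2.86e-10). Spp1, which encodes the secreted phosphoprotein osteopontin, had 3404, 3804 and 4159 CPM at 12 h, against 129.83, 148 and 133 CPM at 4 h. No 12 h library of Spp1 came near the 4 h ones (4.79 ± 0.24), and its level at 0 h was 1.6 ± 0.627 CPM. Vcan, the hyaluronan-binding proteoglycan of the follicle, fell by 1.46 on the log2 scale. Abi1, an actin regulator, fell to 1179 ± 49.7 CPM at 12 h, against 3359.5 ± 801 CPM at 4 h (-1.51 ± 0.16). Gramd1b, a carrier of cholesterol between membranes, fell to 1005 ± 54.9 CPM at 12 h, against 3736 ± 326 CPM at 4 h (-1.89 ± 0.15).

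**Figure D2:**
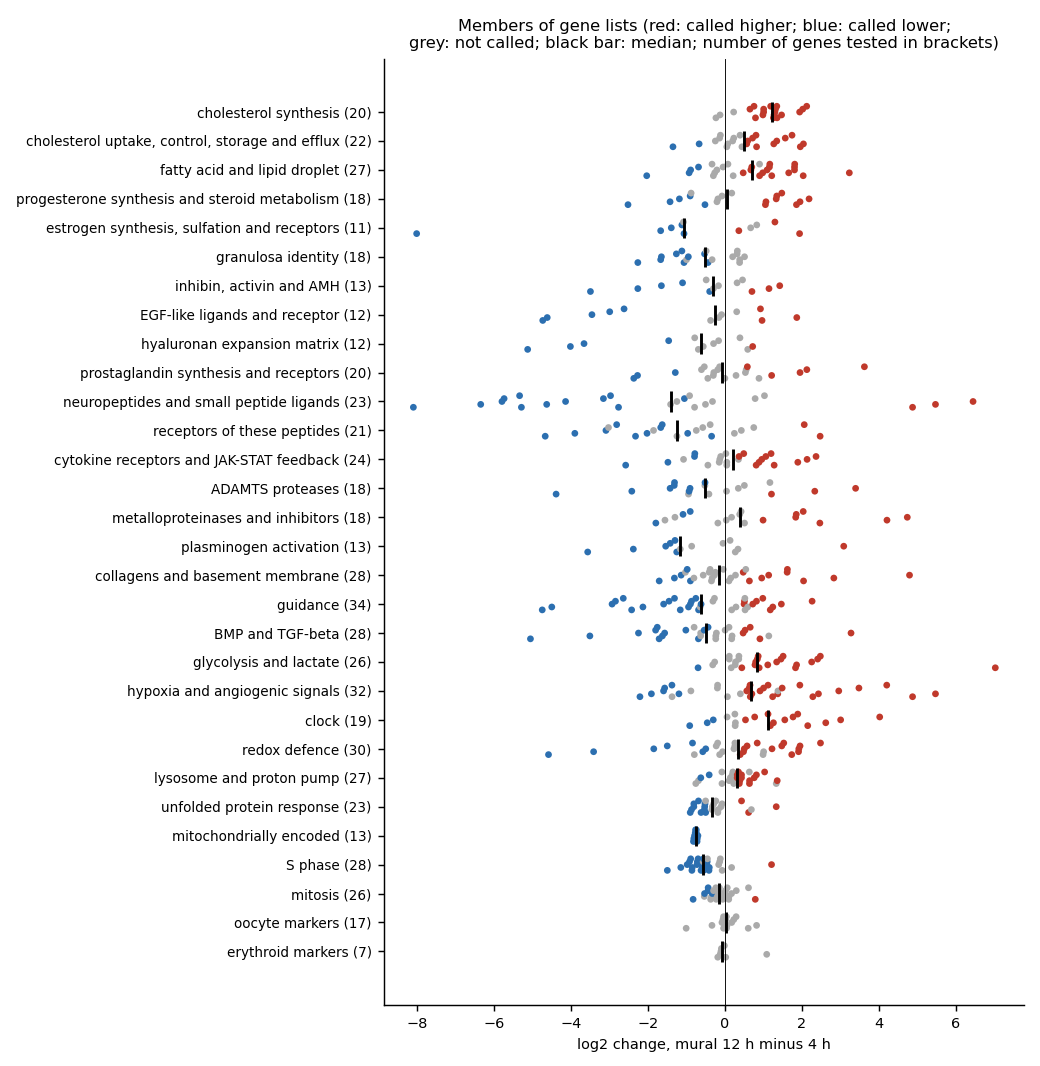
Log2 change between 12 h and 4 h in mural cells (horizontal axis) for the genes tested of 30 lists (rows). Red points were called higher, blue points lower and grey points neither, and the black bar is the list's median. Cholesterol synthesis lies to the right of 0 with a median of 1.22, all 13 mitochondrially encoded genes lie between -0.82 and -0.70, and the peptide ligands spread from -8.09 to 6.44.

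Small peptides that cells release changed in both directions, with 3 of 23 ligand genes higher and 12 lower. Edn2, which encodes the vasoconstrictor endothelin 2 (chr4:120161206-120167360, plus strand), had 357, 362 and 291 CPM at 12 h, against 2.46, 5.58 and 3.55 CPM at 4 h (6.44 ± 0.40, adjusted p = 1.49e-09). Apln, the ligand of the apelin receptor (chrX:48025146-48034853, minus strand), had 186, 226 and 188 CPM at 12 h, against 3.3, 4.03 and 6.2 CPM at 4 h (5.47 ± 0.28, adjusted p = 2.37e-10). Adm, which encodes the vessel-relaxing peptide adrenomedullin, had 39.5, 46.8 and 37.5 CPM at 12 h, against 0.632, 1.9 and 1.67 CPM at 4 h (4.87 ± 0.43). These 3 ligands were low in every 4 h library and high in every 12 h library.

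The other called peptide genes fell. Npy, which encodes neuropeptide Y (chr6:49822710-49829507, plus strand), had 0.0562, 0.16 and 0.0249 CPM at 12 h, against 17.8, 30.2 and 20.002 CPM at 4 h (-8.09 ± 0.68, adjusted p = 1.78e-07). In 2 of the 12 h libraries Npy lay under the limit that a count of 0 allows, between 0.0748 and 0.0854 CPM, which covers counting error only. Nts, the neurotensin gene, had 21.5, 25.9 and 18.4 CPM at 12 h, against 739, 1102 and 729.58 CPM at 4 h (-5.29 ± 0.25). Tac1, the precursor of substance P, had 0.421, 0.24 and 0.448 CPM at 12 h, against 23.7, 43.9 and 23.5 CPM at 4 h (-6.35 ± 0.38). Replicate 2 of 4 h was the highest library for each of these genes, and without it their changes kept their direction and call. Nmu (-5.34 ± 0.44), the enkephalin precursor gene Penk (-4.63 ± 0.23) and Adcyap1, which encodes PACAP (-4.14 ± 0.29), fell too. Penk averaged 6.77 ± 1.003 CPM at 12 h, against 168 ± 18.1 CPM at 4 h. Cartpt and Edn3 were called lower with no count at 12 h, but stood at or under 0.317 CPM in each 4 h library. The remaining ligand genes called lower, Calca, Pdyn, Gal and Nppc, fell by between 1.06 and 3.16.

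Receptors of these peptides were also mostly lower, 10 of 21 against 2 higher. Npr1, the receptor of atrial natriuretic peptide (chr3:90450591-90465866, minus strand), had 84.6, 117 and 119.74 CPM at 12 h, against 1431, 1855 and 1520.2 CPM at 4 h (-3.90 ± 0.38, adjusted p = 3.15e-07). Npr3, which clears natriuretic peptides, had 5.48, 4.8 and 6.83 CPM at 12 h, against 112, 193 and 130.38 CPM at 4 h (-4.67 ± 0.31). Both were many-fold lower in every 12 h library. Npr2, the receptor of C-type natriuretic peptide, changed less, at -0.97 ± 0.17. The receptor of PACAP, Adcyap1r1, fell by 2.32 and the endothelin A receptor gene Ednra by 1.67. Calcrl, a receptor chain that adrenomedullin shares with other ligands, moved apart from Ramp1 and Ramp2. It was at 1.92 ± 0.423 CPM at 12 h, against 5.96 ± 0.655 CPM at 4 h (-1.63 ± 0.23). Ramp1 and Ramp2 encode partner proteins that set which ligand Calcrl binds. Ramp1 averaged 68.3 ± 9.71 CPM at 12 h, against 12.3 ± 1.48 CPM at 4 h (2.47 ± 0.14). Ramp2 averaged 19 ± 0.683 CPM at 12 h, against 4.55 ± 0.476 CPM at 4 h (2.06 ± 0.34), so Ramp1 and Ramp2 both rose.

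**Figure D3:**
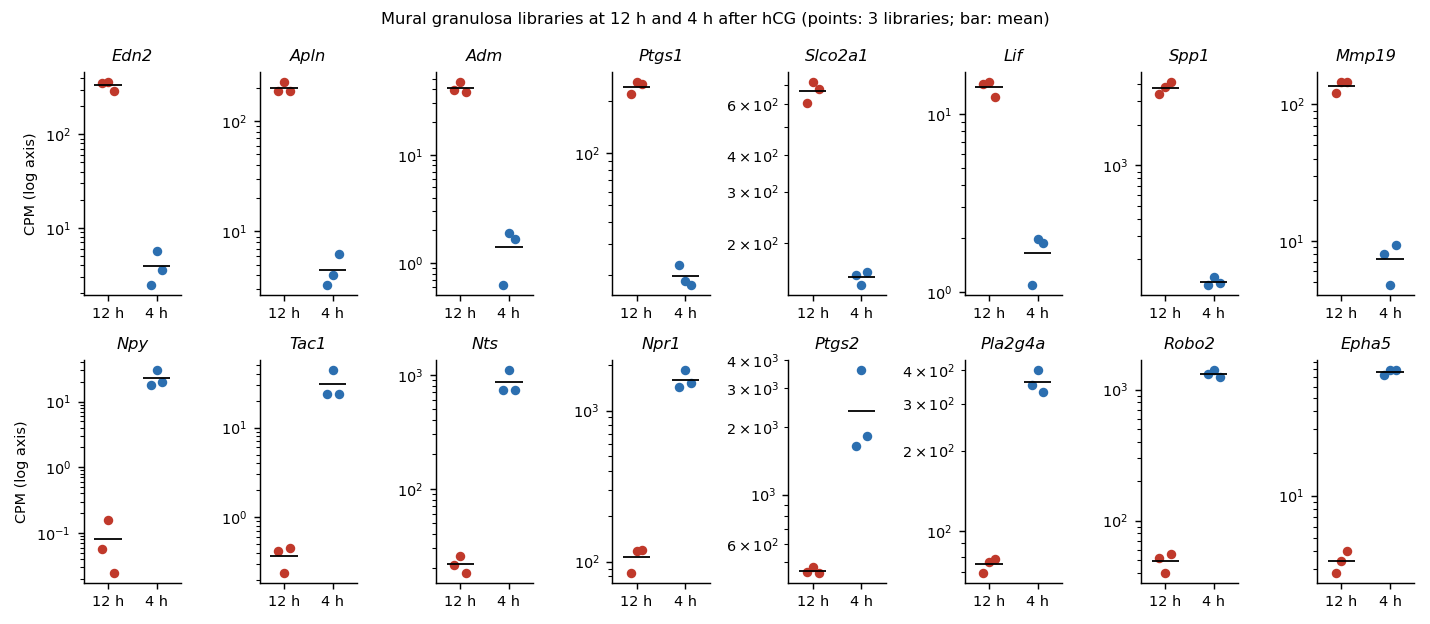
Level in CPM on log axes in each mural library (points, 12 h in red and 4 h in blue) with the mean of 3 as a bar, for 8 genes that rose (top row) and 8 that fell (bottom row). In every panel the libraries of the 2 times are apart, and for Ptgs2 replicate 2 of 4 h, at 3605 CPM, lies above the other 4 h libraries.

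Prostaglandin genes did not move as a group, with 5 of 20 higher and 3 lower (median -0.07, and 0.08 with library totals). The 2 cyclooxygenases, which make the common precursor of all prostaglandins, went opposite ways. Ptgs1 (chr2:36230426-36252272, plus strand) had 219, 255 and 248 CPM at 12 h, against 22.8, 18.4 and 17.5 CPM at 4 h, a rise of 3.62 ± 0.23 (adjusted p = 2.43e-09). Ptgs2, the inducible one, had 449, 473 and 448 CPM at 12 h, against 1656, 3605 and 1819 CPM at 4 h, a change of -2.37 ± 0.39 (adjusted p = 1.07e-04), which was -1.94 without replicate 2 of 4 h. Over time Ptgs1 averaged 1.48 ± 0.417, 19.6 ± 2.84 and 241 ± 19.3 CPM at 0, 4 and 12 h, so the means climbed at each time. Pla2g4a, the phospholipase that frees arachidonic acid, had 69.9, 76.2 and 78.7 CPM at 12 h, against 353, 401 and 332 CPM at 4 h (-2.27 ± 0.14). Ptges, the prostaglandin E synthase, was not called, at 71.9 ± 11.1 CPM at 12 h, against 72.1 ± 4.33 CPM at 4 h. Slco2a1, which takes up prostaglandins from outside the cell, had 606, 715 and 675 CPM at 12 h, against 155, 144 and 159 CPM at 4 h (2.12 ± 0.16). Of the receptors, Ptger4 fell (-1.29 ± 0.22) and Ptgfr, the receptor of prostaglandin F2-alpha, rose (1.21 ± 0.43, adjusted p = 0.0355). Akr1c18, which inactivates progesterone and also acts on prostaglandins, rose (1.95 ± 0.24).

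Of the EGF-like system 5 of 12 genes were lower and 3 higher. All called falls were of ligands. Areg had 14.4, 16.8 and 14.6 CPM at 12 h, against 245, 681 and 292 CPM at 4 h. Btc had 71.1, 67.1 and 67.6 CPM at 12 h, against 1474, 2094 and 1488 CPM at 4 h. Epgn had 10.8, 13.3 and 10.3 CPM at 12 h, against 95.8, 168 and 113 CPM at 4 h (-3.46 ± 0.34), and Ereg and Nrg1 fell by 2.62 and 2.99. The called rises were of the ligand Tgfa (0.92 ± 0.15) and the receptors Egfr and Erbb3. Egfr averaged 109 ± 7.5 CPM at 12 h, against 56 ± 2.06 CPM at 4 h (0.96 ± 0.18). Erbb3 averaged 5.74 ± 0.765 CPM at 12 h, against 1.58 ± 0.22 CPM at 4 h (1.86 ± 0.31). Replicate 2 held the highest 4 h level of Areg, whose change was -4.15 without it, and of Ereg, which was at -2.19.

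Inhibitors of the ERK pathway, which EGF receptors switch on, were split, with 2 of 14 higher and 4 lower. Spry2 fell to 42.3 ± 3.42 CPM at 12 h, against 155 ± 56.2 CPM at 4 h (-1.87 ± 0.27), and Dusp5, a nuclear ERK phosphatase, fell by 1.64. Dusp1 (1.15 ± 0.19) and Dusp2 (3.59 ± 0.67) rose, and Dusp2 stood at 5.98 to 8.11 CPM at 12 h against 0.254 to 0.766 CPM at 4 h. Among 24 immediate early transcription factors 4 were higher and 4 lower. Egr3 (-2.74 ± 0.25), the cAMP-responsive gene Crem (-2.41 ± 0.26) and Ier5 (-1.84 ± 0.24) fell. Myc, a driver of growth, rose to 166 ± 7.22 CPM at 12 h, against 52.7 ± 6.24 CPM at 4 h. Fosl1, a partner of Jun proteins, rose to 68.2 ± 4.49 CPM at 12 h, against 18.5 ± 4.16 CPM at 4 h. Fos and Jun themselves were not called, at -0.17 and -0.11.

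In the hyaluronan matrix, which swells around cumulus cells, 4 of 12 genes were lower and 1 higher. Has2, which makes hyaluronan, had 9.13, 4.77 and 5.16 CPM at 12 h, against 79.4, 147 and 81.5 CPM at 4 h. The cross-linkers Tnfaip6 and Ptx3 had 123 to 144 CPM and 10.6 to 26.4 CPM at 12 h, against 1262 to 2323 CPM and 490 to 755 CPM at 4 h. Vcan had 4124, 5112 and 5178 CPM at 12 h, against 13088, 13830.0 and 12836 CPM at 4 h (-1.46 ± 0.20, adjusted p = 2.10e-05). For these 4 genes every 12 h library lay below every 4 h library.

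Pgr, the progesterone receptor (chr9:8899833-8968611, plus strand), had the largest called fall of the named genes, with 7.02, 2.37 and 4.01 CPM at 12 h, against 1617, 2631 and 1674 CPM at 4 h (adjusted p = 6.53e-11). Of 18 genes counted as Pgr itself and its known targets, 10 were higher and 3 lower (median 0.64). Beside Edn2, Adamts1 and Il6, the transcription factor gene Zbtb16 had 78.5, 98.5 and 82.2 CPM at 12 h, against 19.8, 9.96 and 18 CPM at 4 h (2.44 ± 0.26). Rgcc, a cell cycle regulator, had 694, 765 and 697 CPM at 12 h, against 119, 180.3 and 128 CPM at 4 h (2.33 ± 0.16). Hif3a, of the hypoxia-inducible factors, was at 2.88 ± 0.187 CPM at 12 h, against 0.587 ± 0.215 CPM at 4 h (2.28 ± 0.70). Sphk1, Prkg2, Pgrmc1 and Epas1 were called at 0.63 to 1.35. The targets that fell were Snap25, of vesicle fusion (-2.60 ± 0.19), and the lipid-sensing receptor gene Pparg, which averaged 60.6 ± 4.64 CPM at 12 h, against 195 ± 27.4 CPM at 4 h (-1.69 ± 0.17). For every target named here the libraries of the times did not overlap, as was so for 6845 of all 6873 called genes.

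Of 23 SNARE and exocytosis genes 8 were higher and 7 lower (median -0.03, and 0.12 with library totals). Without replicate 2 of 12 h, or of 4 h, 5 genes were higher. Stx11 rose to 41.8 ± 3.94 CPM at 12 h, against 3.53 ± 0.489 CPM at 4 h (3.57 ± 0.20). Rab3a rose to 23.1 ± 2.99 CPM at 12 h, against 6.64 ± 1.67 CPM at 4 h (1.80 ± 0.24), while the granule protein gene Chgb fell by 1.69.

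In the list of granulosa identity genes those called were lower, while the granulosa markers Nr5a2 and Kctd14, given above, were called higher. Among granulosa identity genes 9 of 18 fell and none rose at this threshold (1 with library totals and 2 in fits of the mural libraries alone). Inha, the subunit shared by inhibins, had 1907, 1454 and 1946 CPM at 12 h, against 7787, 9692 and 8033 CPM at 4 h (-2.26 ± 0.20). Inhba, the subunit of activin A, had 653, 371 and 543 CPM at 12 h, against 4867, 8068 and 4736 CPM at 4 h (-3.50 ± 0.29). Fst, which binds activin, fell by 1.65, while Fstl3, a relative of it, rose (1.42 ± 0.31). Inhbb and Amh were not called, at -0.17 ± 0.24 and -0.49 ± 0.40. Replicate 2 of 12 h was the lowest 12 h library for Inha, Inhba, Inhbb, Amh, Cyp19a1 and Gja1. Gja1, the main connexin between granulosa cells, had 1235, 909.52 and 1241 CPM at 12 h, against 2669, 2816 and 2645 CPM at 4 h (-1.26 ± 0.17), and among 9 gap junction genes 3 were lower and none higher.

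Of 11 estrogen genes 5 were lower and 3 higher. Sult1e1, which sulfates and so inactivates estrogens, had 6.63, 5.17 and 5.26 CPM at 12 h, against 1219, 1940.0 and 1236 CPM at 4 h (adjusted p = 3.14e-12). Cyp19a1, the aromatase that makes estrogens, had 58.6, 31.6 and 58.2 CPM at 12 h, against 145, 195 and 132 CPM at 4 h. Greb1, an estrogen-responsive gene, and Esr2, the estrogen receptor of granulosa cells, fell by 1.40 and 1.12. Hsd17b11, a steroid dehydrogenase found on lipid droplets, had 258, 316 and 248 CPM at 12 h, against 88.2, 51.5 and 75.1 CPM at 4 h (1.94 ± 0.18). Hsd17b7, which also serves cholesterol synthesis, rose by 1.30.

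The steps to progesterone did not share a direction, with 8 of 18 genes higher and 5 lower (median 0.05). Star, which carries cholesterol into mitochondria, had 1281, 1635 and 1191 CPM at 12 h, against 2667, 3934 and 2739 CPM at 4 h (-1.19 ± 0.22). Cyp11a1, which makes pregnenolone there, had 3908, 4979 and 4386 CPM at 12 h, against 1935, 2312 and 2105 CPM at 4 h (1.06 ± 0.38, adjusted p = 0.0395). Its libraries did not overlap, but it was not called without any 1 of the 6 mural libraries, with changes of 0.97 to 1.15 and adjusted p of 0.0629 to 0.122. Cyp11a1 kept its call in both fits of the mural libraries alone, which leave out the spread among cumulus libraries. Hsd3b1, which makes progesterone from pregnenolone, was lower, at 1327 ± 17.1 CPM at 12 h, against 2486 ± 274 CPM at 4 h (-0.91 ± 0.18). It has near-identical relatives among which reads can be split. Tspo, a protein of the outer mitochondrial membrane, rose (1.86 ± 0.11), and Fdxr, which passes electrons to Cyp11a1, rose by 1.05. Akr1c18 rose to 63.7 ± 8.03 CPM at 12 h, against 16.5 ± 2.93 CPM at 4 h. Cyp17a1, which makes androgens in theca cells, fell to 4.73 ± 1.94 CPM at 12 h, against 27.2 ± 3.997 CPM at 4 h (-2.52 ± 0.37).

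Receptors for gonadotropins and the enzymes of cAMP turnover were split, with 6 of 27 higher and 8 lower. Lhcgr, the receptor of hCG, had 494, 566 and 581 CPM at 12 h, against 331, 349.87 and 337 CPM at 4 h, which do not overlap, and its change of 0.69 ± 0.40 was not called (adjusted p = 0.205). Fits of the mural libraries alone, which leave out the spread among cumulus libraries, gave it adjusted p of 2.45e-05 and 3.68e-05. The prolactin receptor gene Prlr rose to 609.86 ± 48.4 CPM at 12 h, against 317 ± 11.5 CPM at 4 h (0.94 ± 0.22). Phosphodiesterase genes moved apart, with Pde4b at -2.13 ± 0.22, Pde10a at -1.79 ± 0.25 and Pde4a at 2.25 ± 0.21. Rgs2, which damps receptor signals, had 461, 474 and 377 CPM at 12 h, against 1397, 1928 and 1392 CPM at 4 h (-1.85 ± 0.15). Among 24 luteinization transcription factors 6 were higher and 5 lower. Klf13 (1.11 ± 0.10), Klf9 (1.10 ± 0.13) and Bhlhe40 (1.12 ± 0.17) rose, Gata6 fell (-1.10 ± 0.18), and Runx1, Runx2 and Cebpb were not called.

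Cholesterol synthesis was higher in 17 of 20 genes and lower in none (median 1.22), against 18.3% of all genes called higher. Acat2, of the first step, had 82.7, 95.2 and 83.4 CPM at 12 h, against 22.4, 15.6 and 22 CPM at 4 h (2.12 ± 0.18). Fdps, which makes farnesyl diphosphate, had 258, 299 and 275 CPM at 12 h, against 71.9, 61.1 and 72.4 CPM at 4 h (2.02 ± 0.18, adjusted p = 9.81e-08). Both were several-fold higher in every 12 h library. Mvd (1.94 ± 0.20), Lss (1.47 ± 0.15), Dhcr7 (1.35 ± 0.14), Hmgcs1 (1.27 ± 0.12) and Idi1 (1.003 ± 0.17) rose as well. In all 20 genes the libraries of the times did not overlap, against 55.8% of all genes tested. Sc5d (-0.13 ± 0.09) and Cyp51 (0.22 ± 0.18), of late steps, were among the 3 genes not called.

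The promoters of these genes often hold the letters CCAAT, read on either strand. Of 15 cholesterol synthesis genes with a promoter in the RefSeq table (GRCm38.p6, 250 bases before to 50 after the start), 14 (93.3%) had them, against 41.1% of 27025 genes with a promoter. Lists that did not rise had similar shares, at 85.0% of 20 mitosis genes and 85.7% of 21 genes of the unfolded protein response. The stretches below are shown because their genes rose together, with CCAAT or its reverse complement ATTGG in capitals.
Hmgcs1, chr13:119690268-119690347, plus strand: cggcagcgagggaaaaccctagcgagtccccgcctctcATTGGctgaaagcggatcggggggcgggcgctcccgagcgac
Idi1, chr13:8885526-8885605, plus strand: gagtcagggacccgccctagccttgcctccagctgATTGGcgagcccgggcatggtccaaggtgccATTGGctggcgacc
Lss, chr10:76531505-76531584, plus strand: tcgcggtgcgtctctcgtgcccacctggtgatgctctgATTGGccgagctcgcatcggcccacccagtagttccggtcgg
Mvd, chr8:122443423-122443502, minus strand: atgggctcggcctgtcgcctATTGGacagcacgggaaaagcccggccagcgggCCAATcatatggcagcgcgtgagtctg
Each stretch reads 5′ to 3′ along the gene's strand. Of 14 motifs searched, those shown were picked after the counts were seen, and a match is a description of letters, not a bound site.

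Uptake, control, storage and efflux of cholesterol had 11 of 22 genes higher and 2 lower (median 0.50). Soat1, which esterifies cholesterol for storage, had 1762, 1887 and 1896 CPM at 12 h, against 453, 488 and 489 CPM at 4 h (1.95 ± 0.14, adjusted p = 7.02e-09). Lipe, which frees it again from esters, was at 34.4 ± 2.28 CPM at 12 h, against 10.3 ± 0.893 CPM at 4 h (1.74 ± 0.19), and Stard4, a cytosolic carrier, rose by 1.34. The 2 genes called lower serve exchange with lipoproteins. Abca1, which exports cholesterol, had 273, 256 and 325 CPM at 12 h, against 686, 744 and 752 CPM at 4 h (-1.35 ± 0.20). Scarb1, which takes it from high-density lipoprotein, had 1326, 1399 and 1437 CPM at 12 h, against 2025, 2481 and 2127 CPM at 4 h (-0.67 ± 0.14).

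Among fatty acid and lipid droplet genes 15 of 27 were higher and 4 lower (median 0.69). Fabp4, a fatty acid carrier, had 70.6, 87.4 and 71.1 CPM at 12 h, against 8.16, 7.64 and 8.64 CPM at 4 h (3.23 ± 0.36). Acsl1 (2.03 ± 0.21), Lpin1 (1.81 ± 0.14), Scd1 (1.80 ± 0.22), Elovl6 (1.80 ± 0.15) and Plin2, which coats lipid droplets (1.21 ± 0.13), rose. Cd36, which takes up fatty acids, had 30.6, 32.9 and 26.1 CPM at 12 h, against 115, 133 and 119 CPM at 4 h (-2.03 ± 0.14). In the lysosome and its proton pump 13 of 27 were higher and 2 lower (median 0.32). The pump subunit genes Atp6v0a1 (1.36 ± 0.09), Atp6v0d1 (1.03 ± 0.11) and Atp6v1a (0.82 ± 0.11) and the protease gene Ctsd (0.76 ± 0.10) rose, each by less than the saposin gene Psap.

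Glycolysis and lactate genes were higher in 16 of 26 and lower in 1 (median 0.82). The lactate exporter gene Slc16a3 had 182, 187 and 179.91 CPM at 12 h, against 30.2, 40.8 and 27.8 CPM at 4 h (2.48 ± 0.20). Pdk1, which holds pyruvate back from mitochondria, had 47.6, 50.002 and 45.9 CPM at 12 h, against 9.62, 8.79 and 8.69 CPM at 4 h (2.41 ± 0.16). Pfkfb3, which speeds glycolysis, had 176, 205 and 183 CPM at 12 h, against 36.3, 40.4 and 41.9 CPM at 4 h (2.25 ± 0.17), and Hk1, the first enzyme, rose by 1.86. For these genes every 12 h library lay above every 4 h library. Slc2a1, a glucose transporter, was the gene that fell, at 204 ± 5.83 CPM at 12 h, against 332 ± 63.2 CPM at 4 h (-0.70 ± 0.17). For some of these genes the 4 h level lay below that of 0 h. Slc16a3 averaged 156 ± 20.9, 32.9 ± 6.91 and 183 ± 3.5 CPM at 0, 4 and 12 h. Pdk1 averaged 49.1 ± 6.3, 9.03 ± 0.51 and 47.9 ± 2.05 CPM at 0, 4 and 12 h.

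Among hypoxia and angiogenic genes 19 of 32 were higher and 6 lower (median 0.68). Bnip3, a mitophagy receptor (chr7:138890836-138909519, minus strand), had 199.99, 222 and 199 CPM at 12 h, against 13.8, 9.77 and 10.2 CPM at 4 h (4.20 ± 0.18, adjusted p = 2.01e-11), and at 0 h it was at 85.6 ± 8.97 CPM. Ankrd37 had 14, 14.2 and 12 CPM at 12 h, against 1.13, 0.761 and 1.7 CPM at 4 h (3.48 ± 0.32). Loxl2, which cross-links collagen, had 476, 623 and 559 CPM at 12 h, against 58.7, 73.3 and 81.8 CPM at 4 h (2.95 ± 0.26), and Ndrg1 rose by 2.43. Vegfa, the main growth factor of vessels, rose less, with 542, 575 and 524 CPM at 12 h, against 349, 369 and 323 CPM at 4 h (0.66 ± 0.16, adjusted p = 0.00427). Hif1a, a factor that acts when oxygen is low, was not called at the RNA level (0.40 ± 0.19). The genes that fell included Pdgfa (-2.21 ± 0.15), Fgf2 (-1.60 ± 0.33), Vegfc (-1.38 ± 0.29) and Egln3 (-1.57 ± 0.33). Kdr, a receptor of Vegfa, fell by 1.91.

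The core of the hypoxia response element, searched as ACGTGC on both strands, lay in the promoters of 8 of 22 genes of that list (36.4%) and 9 of 26 glycolysis genes (34.6%), against 6.68% of all genes with a promoter. Some matches overlap the E-box CACGTG, and 6 of 16 clock promoters (37.5%) also held ACGTGC. The promoters of 4 genes that rose are shown with ACGTGC or its reverse complement GCACGT in capitals.
Bnip3, chr7:138909571-138909650, minus strand: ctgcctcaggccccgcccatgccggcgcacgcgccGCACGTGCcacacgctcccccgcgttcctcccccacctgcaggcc
Ankrd37, chr8:46000021-46000100, minus strand: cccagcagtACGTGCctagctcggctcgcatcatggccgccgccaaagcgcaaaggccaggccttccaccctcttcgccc
Pfkfb3, chr2:11553947-11554026, minus strand: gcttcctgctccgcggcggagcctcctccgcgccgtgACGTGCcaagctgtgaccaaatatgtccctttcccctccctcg
Slc16a3, chr11:120948987-120949066, plus strand: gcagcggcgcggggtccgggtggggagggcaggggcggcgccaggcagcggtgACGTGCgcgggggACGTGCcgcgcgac
In the Bnip3 stretch both strands match at the same place, and in the Slc16a3 stretch there are 2 matches.

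Clock genes were higher in 12 of 19 and lower in 3 (median 1.12). Rora, a nuclear receptor that activates the clock gene Arntl (chr9:68653786-69388246, plus strand), had 241, 294 and 265 CPM at 12 h, against 19.2, 14.8 and 15.4 CPM at 4 h (4.02 ± 0.32, adjusted p = 3.30e-08). Arntl, the activating partner of Clock, had 78, 94.1 and 82.8 CPM at 12 h, against 24.7, 25.4 and 24.8 CPM at 4 h (1.77 ± 0.39), and Npas2, which can stand in for Clock, rose by 1.89. Of the repressors, Per2 rose to 21.4 ± 1.51 CPM at 12 h, against 7.29 ± 0.596 CPM at 4 h (1.55 ± 0.19). Ciart rose to 6.18 ± 0.523 CPM at 12 h, against 1.01 ± 0.392 CPM at 4 h (2.62 ± 0.27). Per1, Cry2 and Clock fell by 0.46, 0.92 and 0.31. Ciart averaged 19.1 ± 1.85, 1.01 ± 0.392 and 6.18 ± 0.523 CPM at 0, 4 and 12 h, so its 12 h level was below that before hCG. The hour of day at which cells were collected is not given in the labels, so time of day and time after hCG cannot be told apart.

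The E-box CACGTG, which Clock and its partners bind and which other factors bind too, lay in 5 of 16 clock promoters (31.2%) and 8 of 19 lysosome promoters (42.1%), against 8.09% of all genes with a promoter. It is shown in capitals for Ciart and for Ldhd.
Ciart, chr3:95882230-95882309, minus strand: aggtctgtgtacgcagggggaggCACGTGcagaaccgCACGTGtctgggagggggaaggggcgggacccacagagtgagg
Ldhd, chr8:111630433-111630512, minus strand: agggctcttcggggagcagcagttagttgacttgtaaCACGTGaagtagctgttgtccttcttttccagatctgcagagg
The Ciart stretch holds it at 2 places, the Ldhd stretch at 1.

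Of 22 cytokine genes 4 were called higher and 2 lower, against 18.3% and 16.1% of all genes tested. Lif, of the IL-6 family, had 14.7, 15.2 and 12.5 CPM at 12 h, against 1.1, 1.998 and 1.88 CPM at 4 h (3.09 ± 0.28). Il6 had 13.2, 14 and 13.4 CPM at 12 h, against 1.33, 2.32 and 1.88 CPM at 4 h (2.87 ± 0.41). Of cytokine receptors and their JAK-STAT pathway 11 of 24 were higher and 4 lower. Osmr, the receptor of oncostatin M, had 63.2, 61.4 and 76.4 CPM at 12 h, against 10.4, 11.3 and 17.3 CPM at 4 h (2.36 ± 0.26). Lifr (1.28 ± 0.17), the shared chain Il6st (0.95 ± 0.10), Stat3 (0.88 ± 0.09) and the feedback inhibitor gene Socs3 (2.13 ± 0.21) rose. Il4ra, a receptor chain of interleukins 4 and 13, had 105, 125 and 129.63 CPM at 12 h, against 27.3, 29.5 and 40.2 CPM at 4 h (1.89 ± 0.15). Socs2 fell to 282 ± 12.9 CPM at 12 h, against 787 ± 43.3 CPM at 4 h (-1.48 ± 0.16), and the cytokine gene Tnfsf11 fell to 0.309 ± 0.0833 CPM at 12 h, against 5.9 ± 3.76 CPM at 4 h (-4.24 ± 0.59). Macrophage markers, beside these, summed to 30.3 to 37.3 CPM at 12 h and 41.2 to 50.6 CPM at 4 h.

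Among ADAMTS proteases 3 of 18 were higher and 8 lower. The 3 that rose, Adamts1, Adamts4 and Adamts5, encode enzymes known to cleave versican. Adamts1 had 4363, 4959 and 4822 CPM at 12 h, against 417, 468 and 463 CPM at 4 h (3.39 ± 0.28, adjusted p = 4.41e-08). Adamts4 had 219.59, 266 and 287 CPM at 12 h, against 44.8, 57 and 51.6 CPM at 4 h (2.33 ± 0.17). Adamts5 had 54.9, 76 and 70.4 CPM at 12 h, against 31.6, 26.5 and 29.1 CPM at 4 h (1.21 ± 0.17). Adamts7 (-1.32 ± 0.11) and Adamts12 (-1.43 ± 0.18), which share a domain layout, fell. The 4 h libraries lay below the 12 h ones for each of the 3 that rose. Of the matrix metalloproteinases and their inhibitors 7 of 18 were higher and 3 lower. Mmp19 had 120.41, 146 and 145 CPM at 12 h, against 8.09, 4.79 and 9.37 CPM at 4 h (4.21 ± 0.31). Mmp11 (2.03 ± 0.16), Mmp15 (1.84 ± 0.26) and Mmp14 (0.99 ± 0.16) rose, and so did the inhibitors Timp1 and Timp2. Timp1 had 515, 605 and 588 CPM at 12 h, against 90.3, 101 and 119 CPM at 4 h (2.46 ± 0.13). Reck, a membrane inhibitor, fell by 1.80.

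Plasminogen activation was lower in 6 of 13 genes and higher in 1. Plau, the urokinase gene, had 253, 277 and 264 CPM at 12 h, against 618, 795 and 720.27 CPM at 4 h (-1.42 ± 0.14). Serpine2, a protease inhibitor, had 1102, 976 and 1119.9 CPM at 12 h, against 2916, 3287 and 3102 CPM at 4 h (-1.54 ± 0.14). Plat, the tissue activator, was not called (0.27 ± 0.58).

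Collagens and basement membrane genes were split, with 9 of 28 higher and 5 lower. Without replicate 2 of 12 h 2 were lower and without replicate 3 of 4 h 3 were, and without replicate 2 of 4 h 6 were higher. The chains of type IV collagen moved apart. Col4a1 had 1970.5, 2239 and 2597 CPM at 12 h, against 679.94, 695 and 839.6 CPM at 4 h (1.62 ± 0.20) and Col4a2 rose by 1.61, while Col4a3 and Col4a4 fell by 1.32 and 1.14. Sparc, a collagen-binding protein, had 1408, 1697 and 1603 CPM at 12 h, against 211, 193 and 260.08 CPM at 4 h (2.83 ± 0.21). Thbs1, an inhibitor of vessel growth, had 914, 743 and 762 CPM at 12 h, against 2386, 2936 and 2590.3 CPM at 4 h (-1.71 ± 0.19).

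Of 28 adhesion genes 4 were higher and 8 lower. Itga2, a collagen-binding integrin, had 282, 269 and 316 CPM at 12 h, against 2148, 2692 and 2259 CPM at 4 h (-3.03 ± 0.19, adjusted p = 1.97e-09), and Vcam1 fell to 1.46 ± 0.44 CPM at 12 h, against 41.6 ± 6.66 CPM at 4 h (-4.82 ± 0.46). Itgb3, an integrin that binds osteopontin, had 208, 269 and 245 CPM at 12 h, against 43.6, 40.4 and 47.9 CPM at 4 h (2.45 ± 0.15). Cdh5, the cadherin best known from vessels, had 114, 143 and 123 CPM at 12 h, against 15.5, 18.3 and 17.7 CPM at 4 h (2.88 ± 0.18). Of the other 13 endothelial markers tested, Kdr was lower and 12 were not called, none of the 12 above 8.14 CPM in any of the 6 libraries. Nectin2 rose by 2.05 and Cldn1 by 2.09.

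Guidance genes, named for the steering of axons, were lower in 17 of 34 and higher in 9 (median -0.63). Robo2, a receptor of Slit proteins (chr16:73891839-74411825, minus strand), had 51.3, 40.1 and 55.8 CPM at 12 h, against 1306, 1409 and 1241 CPM at 4 h (-4.75 ± 0.15, adjusted p = 2.88e-12). Robo1 had 165, 159 and 179 CPM at 12 h, against 1004, 1218 and 926 CPM at 4 h (-2.64 ± 0.17). The ligand genes moved apart, with Slit2 at -1.59 ± 0.19 and Slit3 at 1.17 ± 0.20. Epha5, an ephrin receptor, had 2.81, 3.39 and 3.99 CPM at 12 h, against 73, 78.9 and 78.9 CPM at 4 h (-4.50 ± 0.19), and Epha4 fell by 2.93. Sema3c, a secreted semaphorin, had 65.3, 69.4 and 63.4 CPM at 12 h, against 426, 550.03 and 449 CPM at 4 h (-2.85 ± 0.16), while the membrane-bound Sema7a had 598, 705 and 687 CPM at 12 h, against 143, 128 and 145 CPM at 4 h (2.26 ± 0.19). The libraries of the times did not overlap for 31 of the 34, against 55.8% of all genes tested.

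BMP and TGF-beta signals were lower in 12 of 28 genes and higher in 5, or in 2 to 5 without 1 library, the fewest without replicate 2 of 4 h. Bmp3 had 39, 28.6 and 39.2 CPM at 12 h, against 1122, 1321 and 1105 CPM at 4 h (-5.05 ± 0.22). Grem1, an antagonist of BMPs known from cumulus cells, had 18.7, 15 and 16.4 CPM at 12 h, against 156, 261 and 155 CPM at 4 h (-3.51 ± 0.23). Its mean at 0 h was 536 ± 56.6 CPM. Bambi, a decoy receptor, fell by 2.25. Id2, an inhibitor of bHLH transcription factors, had 638, 767 and 676 CPM at 12 h, against 54.3, 95.5 and 65.4 CPM at 4 h (3.27 ± 0.24, adjusted p = 1.03e-08). Its relatives Id3 and Id4 fell by 0.69 and 1.76, and Id1 rose by 0.52.

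Notch genes were lower in 6 of 15 and higher in 1, which was not called without replicate 1 of 4 h. The ligand gene Jag1 had 18.6, 17 and 18.3 CPM at 12 h, against 181, 268 and 206 CPM at 4 h (-3.60 ± 0.30), and the target gene Hey1 fell to 3.42 ± 0.858 CPM at 12 h, against 44.8 ± 20.7 CPM at 4 h (-3.71 ± 0.30). The receptors Notch1 and Notch2 fell by 1.88 and 1.12. In Hedgehog signalling 3 of 9 were lower and none higher, with Hhip, a decoy receptor, at -2.38 ± 0.42. Wnt genes were lower in 8 of 27 and higher in 3. Wnt11 fell to 1.58 ± 0.359 CPM at 12 h, against 35.4 ± 12.9 CPM at 4 h (-4.48 ± 0.44) and the co-receptor gene Lrp6 by 1.33, while Wnt4 rose to 134 ± 6.1 CPM at 12 h, against 48.2 ± 8.71 CPM at 4 h (1.48 ± 0.16).

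RNA of DNA replication genes was mostly lower at 12 h, with 20 of 28 S phase genes called lower and 1 higher (median -0.56). Pcna, the sliding clamp of DNA polymerase, had 70.8, 61.2 and 61.5 CPM at 12 h, against 158, 224 and 165 CPM at 4 h (-1.50 ± 0.17). The helicase subunit genes Mcm5 (-0.98 ± 0.12) and Mcm3 (-0.89 ± 0.15) and the cyclin gene Ccne1 (-1.15 ± 0.19) fell. Rrm2, which makes deoxynucleotides, went the other way, with 218, 245 and 201 CPM at 12 h, against 96.1, 103 and 89.3 CPM at 4 h (1.21 ± 0.15). Of 26 mitosis genes 5 were called lower and 1 higher, against 16.1% and 18.3% of all genes tested. Without any 1 library 3 or 4 were lower. In the fit of the 6 libraries of these times 10 were lower and 3 higher. Ccnb2 rose (0.79 ± 0.13), and Mad2l1, of the spindle checkpoint, fell (-0.83 ± 0.11). Of the D cyclins and cell cycle brakes 8 of 21 were higher and 3 lower. The brakes Cdkn1a (1.34 ± 0.23), Cdkn2d (1.56 ± 0.13) and Btg2 (1.95 ± 0.29) rose, and so did Ccnd3 (1.38 ± 0.12). Btg1 fell to 124 ± 5.2 CPM at 12 h, against 532 ± 241 CPM at 4 h (-2.10 ± 0.27).

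All 13 mitochondrially encoded genes were called lower, within a narrow range of -0.82 to -0.70. Their share of counts was 3.54 to 4.15% at 12 h and 5.24 to 7.57% at 4 h. Replicate 3 of 4 h had the highest share, and without it 3 of the 13 were called. The nuclear genes of the respiratory chain did not go with them, with 5 of 27 higher and 1 lower (median 0.10). With library totals 14 were higher. Cycs, which encodes cytochrome c, was the one that fell (-0.95 ± 0.17), and the complex II genes Sdhc (0.71 ± 0.11) and Sdhd (0.42 ± 0.08) rose.

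The unfolded protein response was lower in 10 of 23 genes and higher in 3. Hspa5, the main chaperone of the endoplasmic reticulum, had 1104, 1006 and 1153 CPM at 12 h, against 1897, 2198 and 2011 CPM at 4 h (-0.90 ± 0.16). Pdia3 fell by 0.87, while Pdia4, of the same family of disulfide isomerases, had 1239, 1385 and 1306 CPM at 12 h, against 535, 514 and 514 CPM at 4 h (1.33 ± 0.15). Of redox genes 13 of 30 were higher and 7 lower (median 0.33). Gpx3, a secreted glutathione peroxidase, had 244, 284 and 201 CPM at 12 h, against 42.7, 45.6 and 42.6 CPM at 4 h (2.48 ± 0.14). The metallothionein gene Mt1 had 587, 635 and 572 CPM at 12 h, against 154, 162 and 159.98 CPM at 4 h (1.92 ± 0.13). Gclc, which limits glutathione synthesis, had 192, 189.74 and 193 CPM at 12 h, against 630.17, 768 and 677 CPM at 4 h (-1.85 ± 0.16). The glutathione transferase gene Gsta4 fell by 3.41 and Gsta2 by 5.72, and Gsta2 has a near-identical copy, so its reads may be split. Gstm1, of another class of transferases, rose (1.95 ± 0.22).

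Of 25 amino acid transporters 2 were called higher and 3 lower, against 18.3% and 16.1% of all genes tested. Without some single libraries 1 was higher. Slc7a8, a carrier of neutral amino acids, had 1228, 1365 and 1330.1 CPM at 12 h, against 3772, 4175 and 3672 CPM at 4 h (-1.57 ± 0.14). Among 16 retinoid genes 2 were higher, or 0 without replicate 2 of 4 h and 1 without replicate 1 of 12 h, and 3 lower. Aldh1a3, which makes retinoic acid, fell to 2.38 ± 0.117 CPM at 12 h, against 6.08 ± 1.23 CPM at 4 h (-1.35 ± 0.26).

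**Figure D4:**
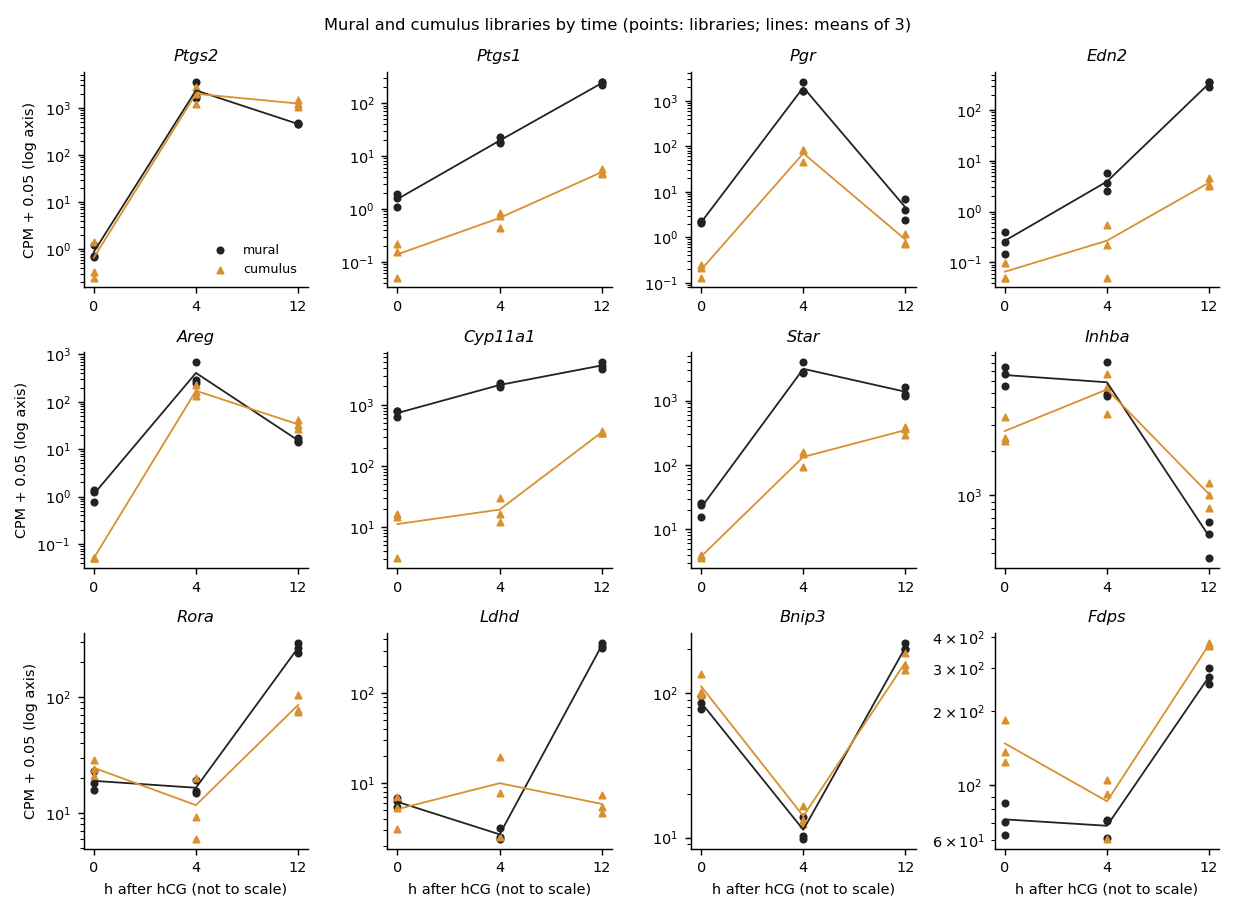
Level in CPM plus 0.05 on log axes (vertical) at 0, 4 and 12 h after hCG (horizontal, evenly spaced) in mural (black circles) and cumulus libraries (orange triangles), with lines through the means of 3. In mural cells the means of Ptgs2 and Pgr are highest at 4 h, those of Ptgs1 and Edn2 climb at each time, and Bnip3 and Ldhd are lowest at 4 h.

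Whether the mural change differed from that of cumulus cells was tested as the mural minus the cumulus log2 change. In cumulus cells themselves 60.5% of genes were called between 12 h and 4 h. The difference was called for 8256 genes (41.4%), the mural change being the more positive in 4230 (21.2%) and the more negative in 4026 (20.2%). All 17 oocyte markers were called in it, and their summed level was 7.77 to 13.2 CPM in cumulus cells at 12 h and 1537 to 9467 CPM at 4 h. The cumulus libraries of 4 h also differed most among themselves, with a chi-square per degree of freedom of up to 273.4 between 2 of them, against at most 40.43 between mural libraries of 1 time. The part of oocyte RNA in these differences was not tested.

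For several genes of the first hours the mural change was the more negative. Ereg fell in mural cells and was at 1.26 ± 0.30 in cumulus cells, a difference of -3.88 ± 0.44 (adjusted p = 4.58e-06). The difference was -2.92 ± 0.29 for Btc, -3.22 ± 0.42 for Ptx3, -3.11 ± 0.32 for Tnfaip6 and -2.80 ± 0.26 for Snap25. Npr1 was lower in mural cells but at 2.23 ± 0.36 in cumulus cells, a difference of -6.13 ± 0.52 (adjusted p = 2.64e-07). Its cumulus level was low, at 3.89 to 11.4 CPM at 4 h and 25.2 to 51.6 CPM at 12 h. Nts fell in mural cells and was at -0.25 ± 0.20 in cumulus cells (-5.04 ± 0.31). Star and Pla2g4a, at 1.39 ± 0.22 and 0.53 ± 0.13 in cumulus cells, differed by -2.57 ± 0.31 and -2.80 ± 0.19. In the unfolded protein response the mural median was -0.34 and the cumulus median 0.55, and the difference was called for 18 of 23 genes.

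For other genes the mural change was the more positive. Id2 was at 0.69 ± 0.22 in cumulus cells (2.58 ± 0.31), Pfkfb3 at 0.12 ± 0.16 (2.13 ± 0.23) and Adamts1 at 1.05 ± 0.26 (2.34 ± 0.36). Ldhd was at -0.78 ± 0.45 in cumulus cells, a difference of 7.80 ± 0.69 (adjusted p = 4.23e-07). For Apln, Spp1, Psap, Slco2a1 and Fdps the difference was between -0.42 and 0.07 and was not called. It was -0.04 ± 0.19 for Psap and -0.10 ± 0.24 for Fdps, and a difference within these errors cannot be told from 0. For Lhcgr it was 0.10 ± 0.62, and Ptgs1, at 0.65 ± 0.37, was not called either. In cumulus cells Lhcgr was low at both times, at 1.18 to 4.88 CPM. Ptgs1 and Apln were low there at 4 h, at 0.389 to 0.789 and 0.121 to 0.449 CPM. For these 3 genes the lack of a call does not show that the cell types changed alike.

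**Figure D5:**
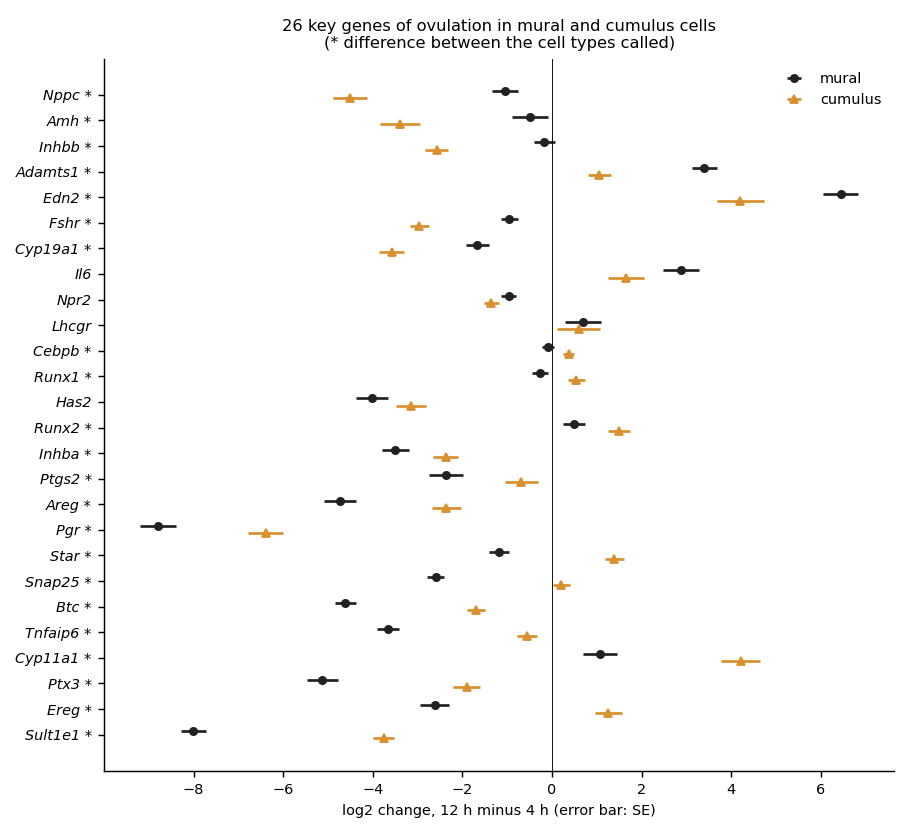
Log2 change between 12 h and 4 h with its SE (horizontal) for 26 key genes of ovulation (rows) in mural cells (black circles) and cumulus cells (orange triangles), ordered by the mural minus the cumulus change. An asterisk marks genes whose difference was called. Star lies left of 0 in mural cells and right of it in cumulus cells, and Sult1e1 and Ereg have the most negative differences.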

How the data were processed

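RNA of mural granulosa and cumulus cells was enriched for polyadenylated transcripts, made into stranded libraries and sequenced on an Illumina instrument, per the labels. The authors mapped reads to GRCm38 in CLC Genomics Workbench with default parameters, per the labels' protocols and the submitters' processing notes, and deposited whole-number read counts per gene, described as unique gene reads and not normalized. Not given in the sources used here were the CLC version, the annotation and the use of strand, so overlapping and antisense genes are uncertain. There were 0 columns of other samples.

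From these counts, 19941 of 41325 entries passed edgeR 4.0.16's filterByExpr (minimum count 10), and 153 entries carry a number suffix on a repeated name. Scaling factors were TMM, a trimmed mean of log ratios. The robust quasi-likelihood test (R 4.3.3, limma 3.58.1) was fitted over 18 libraries with 6 group means, and p-values were Benjamini-Hochberg adjusted over all genes tested, with a threshold of 0.05. The SE is the log2 change divided by the square root of its F statistic. CPM are counts per M counts with TMM-scaled totals. The fit was tested on simulated counts in which 200 genes were changed and all genes and groups shared the same spread. That test does not cover the unequal spread between the groups of real libraries. Totals of 32.2 M to 40.1 M counts per library put the limit of a count of 0 (3 counts) between 0.0748 and 0.0931 CPM, for counting error only. Whether the replicate numbers of 12 h and 4 h mark pairs could not be decided. DESeq2 1.42.0, other scaling, filters, fits of fewer libraries, left-out libraries and a block were the alternatives.

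The members and the 55 gene lists (1046 distinct genes, 983 tested) were chosen with earlier results of these data known. The genes named were drawn from the 15 largest rises and 15 largest falls at 20 CPM or more with no overlap, up to 4 called genes per list at 5 CPM or more, 26 key genes, the 10 called genes with most counts and a change of at least 2-fold, and the 6 largest differences from cumulus cells in each direction. Predicted genes were left out of the first and last of these. Other list members were named after their values were seen, to show their list. Promoters were matched by symbol to RefSeq (GRCm38.p6), and gene positions to GENCODE M21.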

Additional observations from a re-analysis of the deposited data

Results flagged for a closer look

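The change between 12 h and 4 h differed between mural and cumulus cells for most of the key genes by a test of the difference itself (mural minus cumulus log2 change, quasi-likelihood test of edgeR, Benjamini-Hochberg adjusted), and these values are given with no explanation. Of the genes chosen for the largest differences, those with the more positive mural change were Rapgef5 (12.04 ± 1.30), Tent5b (11.19 ± 1.19), Gucy2e (8.46 ± 1.12), Cd177 (7.85 ± 1.01), Sorbs2 (7.80 ± 0.85) and Ldhd (7.80 ± 0.69). The first 5 stood higher in every cumulus library of 4 h than in every one of 12 h, while Ldhd overlapped, with 5.41, 7.39 and 4.62 CPM at 12 h and 7.63, 2.46 and 19.7 CPM at 4 h. Rapgef5, Tent5b and Gucy2e had at most 0.264 CPM in a cumulus library of 12 h, near or under the limit that a count of 0 allows, so the size of their fitted differences depends on the prior count. Oocyte markers summed to 7.77 to 13.2 CPM in cumulus libraries at 12 h and 1537 to 9467 CPM at 4 h. The part of oocyte RNA in these differences was not tested. Those with the more negative mural change were Cyp17a1 (-7.12 ± 2.06), Wisp2 (-7.05 ± 1.40), Enpp3 (-6.33 ± 0.28), Tgm2 (-6.13 ± 0.40), Npr1 (-6.13 ± 0.52) and Tgfbi (-6.08 ± 0.50). Cyp17a1 and Wisp2 had no count in the cumulus libraries of 4 h, so their fitted differences depend on the prior count and are no bound.

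Among the key genes the mural change was the more negative for Sult1e1 (-4.25 ± 0.31), Ereg (-3.88 ± 0.44), Ptx3 (-3.22 ± 0.42), Cyp11a1 (-3.15 ± 0.55), Tnfaip6 (-3.11 ± 0.32), Btc (-2.92 ± 0.29), Snap25 (-2.80 ± 0.26) and Star (-2.57 ± 0.31). The same held for Pgr (-2.40 ± 0.51), Areg (-2.37 ± 0.45), Ptgs2 (-1.68 ± 0.52), Inhba (-1.12 ± 0.38), Runx2 (-1.01 ± 0.34), Runx1 (-0.81 ± 0.26) and Cebpb (-0.46 ± 0.18). It was the more positive for Nppc (3.45 ± 0.48), Amh (2.91 ± 0.59), Inhbb (2.41 ± 0.34), Adamts1 (2.34 ± 0.36), Edn2 (2.25 ± 0.80), Fshr (2.01 ± 0.28) and Cyp19a1 (1.91 ± 0.36). Without replicate 2 of mural 4 h the differences of Ptgs2, Inhba, Runx1 and Cebpb were not called. Without replicate 3 of cumulus 4 h those of Cyp17a1, Ptgs2, Inhba, Runx2, Cebpb and Edn2 were not, and with library totals those of Inhba, Runx1, Runx2 and Cebpb were not. The difference of Edn2 was 0.88 without replicate 2 of cumulus 4 h (adjusted p = 0.611), and that of Cyp17a1 was -2.52 without replicate 3 of cumulus 12 h (adjusted p of nearly 1). Runx2, Cebpb, Edn2, Inhba and Runx1 also lost their call without other single libraries.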

How the results depend on the processing

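The count of genes called between 12 h and 4 h stayed within 1.5 times of 6873 under every alternative run. It was between 5479 (without mural 4h replicate 2) and 6080 without 1 mural library, 7460 with DESeq2, 9233 with the 9 mural libraries and 9148 with the 6 of these times. With the replicate block it was 6784, and for the difference from cumulus cells 8016. Deviations of 12 h and 4 h libraries with the same number correlated at -0.214, 0.032 and 0.199, and those with unlike numbers at -0.206 to 0.13. The deviations are from means of only 3 libraries, so whether the numbers mark pairs cannot be decided. The difference from cumulus cells was called for 7108 to 9092 genes, the fewest with a mean of at least 5 CPM asked for.

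Of 208 named genes 201 to 208 kept direction and call in each setting, and of 38 genes named for the difference 30 to 38 did, the fewest without cumulus 4h replicate 3. A sign turned for genes that were not called. Inhbb was at 0.0731 without mural 12h replicate 2, and between -0.32 and 0.0731 without 1 library. Cebpb was at 0.0565 with library totals. The difference of Lhcgr was -0.0560 with the replicate block and between -0.67 and 0.42 without 1 library. Without 4 h replicate 2 Cyp11a1, Top2a, Ihh, Dnajb9, Rdh11 and Rarg were not called. The cause was not tested. With library totals the medians of the gonadotropin, luteinization factor, D cyclin, collagen, gap junction, SNARE and prostaglandin lists turned sign, each from below to above 0. Depth limits statements on genes near 0.0748 to 0.0931 CPM.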
